A study of Homo sapiens with 45 samples.

Results

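The data cover the first 24 h of recombinant adeno-associated virus (rAAV) production in AC1.112, a clone of HEK293F cells. HEK293F is a suspension form of the human embryonic kidney line HEK293, which carries adenovirus genes that help AAV to grow. The 3 libraries titled AC1.112 at 24 h were compared with the 3 titled AC1.112 at 0 h, 6 of the 45 libraries of the series. Both groups carry the genotype label "WT, clonal", and no allele or knockout separates them. The 0 h cells were taken before transfection. The 24 h cells had been moved to fresh Expi293 medium and given TransIT-VirusGEN reagent with a helper plasmid, a RepCap9 plasmid and a reporter plasmid with ITRs, the inverted repeats that mark a sequence for packaging. Of the other lines, used only to place this response, AC1.203 and AC1.230 are labelled clonal, AC1P polyclonal and 293F plain wild type, and each had 3 libraries per time. AC1.112 is a single clone, so its libraries describe that clone and not clones in general. No mock-transfected library was analysed here, so plasmids, reagent, fresh medium and a day of culture cannot be told apart. The labels do not say that replicates came from separate cultures, and p-values then measure only the spread between these libraries, which may be technical.

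As background, transfection brings large amounts of plasmid DNA into the nucleus, and the helper and rep/cap plasmids then drive viral proteins that act on transcription, splicing and the cell cycle. Cells can answer foreign DNA and a load of new protein through several known programmes. Heat shock factors raise chaperones, ATF4 raises amino acid synthesis and transport genes, MAP kinases raise immediate early genes, and interferon signalling raises antiviral genes. BMP signals act through SMAD proteins to keep ID genes on, which hold back differentiation factors.

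The total count per library was 27992171 to 49239986 at 0 h and 35680903 to 36755500 at 24 h. Levels are in CPM, counts scaled to a common library size with edgeR's trimmed mean of M values, and a fold change compares the same gene at both times. Because this is bulk RNA, fewer cells of a type and less RNA per cell cannot be told apart. Replicate 3 at 24 h stood apart from its group. On the genes of at least 1 CPM, its counts differed from those of 24 h replicates 1 and 2 by a mean chi-square per gene of 17.5 and 18.6, against 6.33 between replicates 1 and 2 and 9.44 to 11.3 between the 0 h libraries. Mitochondrial genes took 3.29% of its counts, against 2.42% and 2.62% in the other 24 h libraries and 3.21% to 3.24% at 0 h. Long intergenic noncoding RNA genes took 0.765%, against 0.541% and 0.485%. The 72 h libraries of the clone held 3.39% to 3.64% and 0.728% to 0.917%, so its mitochondrial share lay between those of 0 h and 72 h and its noncoding share within the range of 72 h. Its root mean square log2 distance to the 72 h libraries was 0.299 to 0.335, while for 24 h replicates 1 and 2 it was 0.343 to 0.406. Its distance to 24 h replicates 1 and 2 was still smaller, at 0.258 and 0.279. Counts of calls, and of list members for 24 h against 0 h, are therefore also given without it where they moved by over 1.5 times.

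**Figure D1:**
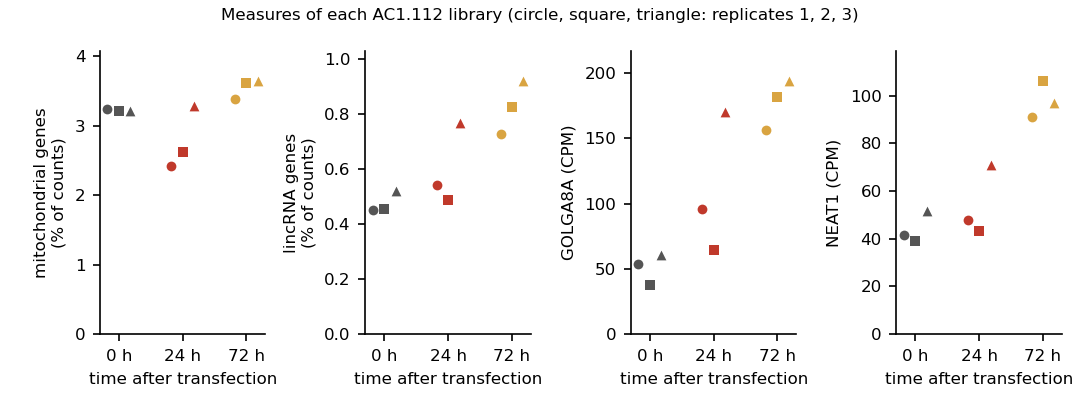
Share of counts in mitochondrial and in long intergenic noncoding RNA genes (percent of the library) and levels of GOLGA8A and NEAT1 (CPM) in the 9 AC1.112 libraries at 0, 24 and 72 h, 1 point per library. The triangle at 24 h is replicate 3, which lies above the other 24 h libraries in all 4 panels and near the 72 h libraries for GOLGA8A.

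Markers of its line were detected in the clone. All 6 markers set for HEK293 cells, epithelial genes among them, had counts (KRT8, KRT18, PAX2, LHX1, CDH2 and VIM). Their summed level was 1115 to 1316 CPM at 0 h and 1015 to 1187 CPM at 24 h. The sum was uneven, since their means ran from 1.35 to 977 CPM. A wider list of 16 epithelial markers summed to 467 to 527 CPM at 0 h and 498 to 560 CPM at 24 h. Neurofilament genes, known to be high in HEK293, gave most of the neuronal sum, which was 5219 to 5996 CPM at 0 h and 3844 to 4351 CPM at 24 h. NEFM, the medium chain, accounted for the larger part, with 4317, 4814 and 4110.2 CPM at 0 h and 3293, 3507 and 3071 CPM at 24 h. The 5 markers set for mature kidney were near 0, and UMOD and AQP2 had no count in any of the 6 libraries. A wider list of 27 kidney markers summed to 127.1 to 141.0 CPM at 0 h and 131.7 to 139.4 CPM at 24 h. Of these 27, 5 had no count. The blood cell marker PTPRC and the fibroblast marker FAP also had none, but most members of their lists had counts. Only 3 of 18 blood cell markers and 1 of 10 fibroblast markers had none. The blood cell markers summed to 5.51 to 6.94 CPM at 0 h and 5.16 to 6.14 CPM at 24 h.

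HBB, the beta-globin gene (chr11:5225464-5229395, GRCh38, GENCODE release 29, as for the positions of genes below), served as a check of transfection, since parts of it are often built into expression plasmids. It had no count in any 0 h library and 27, 64 and 63 counts at 24 h. That is at least 54.9-fold higher, against a floor of 3 counts over the 0 h group. The plasmid sequences were not analysed here, so whether these reads come from a plasmid or from the gene was not tested.

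Of 21242 genes tested, 259 were called higher at 24 h and 264 lower, a call needing both an adjusted p under 0.05 and a change of 2-fold or more. These are 1.22% and 1.24% of the genes tested, 2.46% in all. Without the 2-fold minimum, 2301 genes passed as higher and 2670 as lower, which is 10.8% and 12.6%, and 89.5% of them changed by less than 2-fold. The median log2 fold change over all genes was 0.004. Most of the called genes were faint: 367 of the 523 had a mean under 1 CPM, and 39 had no count at 1 of the times. Of the 14445 genes of at least 1 CPM, 71 were called higher and 85 lower, or 0.492% and 0.588%. By type, 320 were protein-coding (117 higher, 203 lower), 64 were long intergenic noncoding RNAs (39 and 25) and 55 antisense RNAs (33 and 22). Without 24 h replicate 3, 157 genes were higher and 288 lower, and 128 of the 259 and 182 of the 264 were called again. With no minimum fold, 1478 and 2278 of 21884 then passed. Against a fold change of at least 2 itself (glmTreat), 7 genes were higher and 4 lower. The libraries of the 2 times did not overlap for 447 of the 523, for 33.2% of all genes tested and for 41.5% of those of at least 1 CPM.

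**Figure D2:**
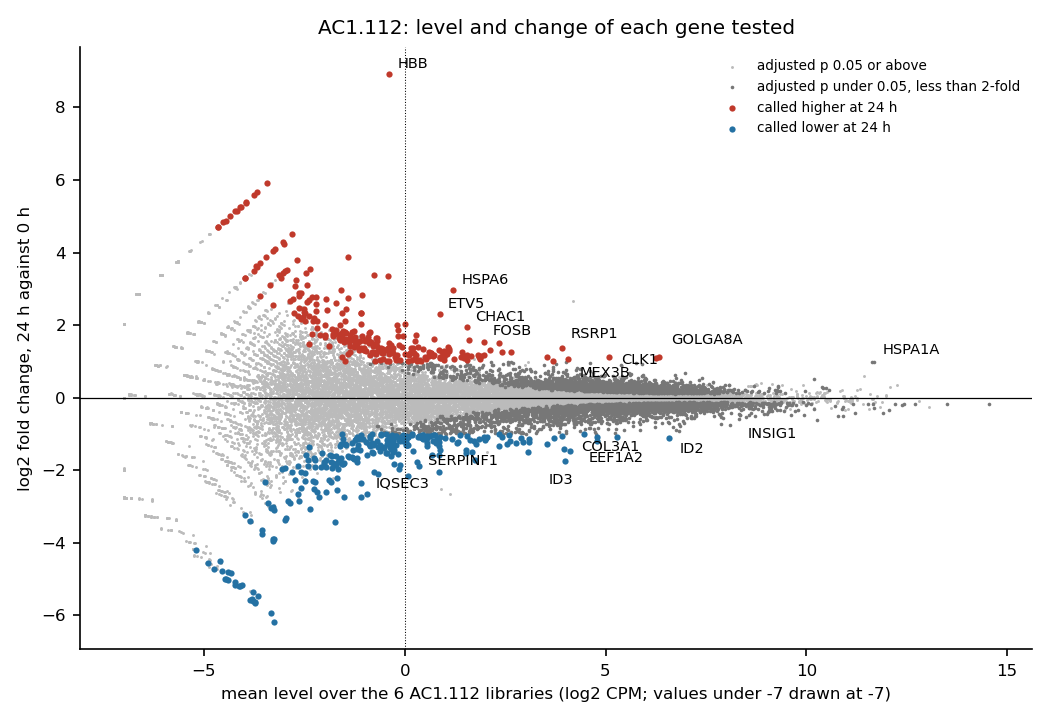
Each point is 1 of the 21242 genes, with its mean level over the 6 libraries (log2 CPM) on the horizontal axis and its log2 fold change at 24 h against 0 h on the vertical axis. Called genes (red higher, blue lower) lie mostly under 1 CPM, left of the dotted line, where 367 of the 523 are found, and the diagonal rows at the far left are genes with few or no counts at 1 time, whose fitted values depend on the prior count.

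Among called protein-coding genes of at least 8 CPM with no overlap between times, only 4 were higher. RSRP1, which encodes an arginine and serine rich protein (chr1:25242237-25338213), had 8.05, 7.8 and 9.82 CPM at 0 h and 18.9, 17.8 and 28.7 CPM at 24 h. Replicate 3 was its highest 24 h library (log2 fold change 1.36, SE 0.19, adjusted p = 2.58e-06). The lack of overlap was a condition of the choice of these genes. Without 24 h replicate 3 the log2 fold change of RSRP1 was 1.10. The kinase gene CLK1 (chr2:200853009-200864744), whose product phosphorylates SR splicing factors, had 22.2, 18.5 and 23.8 CPM at 0 h and 45.8, 43.3 and 49.7 CPM at 24 h, 2.16-fold more at 24 h (log2 fold change 1.1, SE 0.13, adjusted p = 1.1e-07). MEX3B (chr15:82041778-82046141), which encodes an RNA-binding protein, had 11.2, 10.2 and 10.6 CPM at 0 h and 24.3, 23.2 and 19.9 CPM at 24 h (log2 fold change 1.07, SE 0.086, adjusted p = 1.58e-15). The 3 libraries of a time were close together for MEX3B, and replicate 3 was the lowest at 24 h.

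The golgin gene GOLGA8A (chr15:34379068-34437466) had 53.9, 37.7 and 60.4 CPM at 0 h and 95.8, 64.5 and 170.2 CPM at 24 h. Its log2 fold change of 1.13 (SE 0.29, adjusted p = 0.00481) was 0.65 without 24 h replicate 3 (adjusted p = 0.132), so the call rests on that library, and without 0 h replicate 2 the log2 fold change was 0.93, adjusted p = 0.0507. GOLGA8B, a near-identical copy, had 52.7, 35.4 and 58.6 CPM at 0 h and 90.5, 57.7 and 162 CPM at 24 h, and reads of the pair cannot be assigned with certainty. The nuclear RNA NEAT1 did not pass (log2 fold change 0.30, SE 0.21, adjusted p = 0.333), nor did MALAT1 (log2 fold change 0.05, SE 0.18, adjusted p = 0.898).

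The 10 most reduced genes of at least 8 CPM with no overlap were ID3, SERPINF1, HAS2, COL3A1, CRABP2, HSPB8, EEF1A2, TMEM132E, ID2 and IL32. ID3, an inhibitor of basic helix-loop-helix factors (chr1:23557918-23559794), was the most reduced, with 25.6, 24.4 and 24 CPM at 0 h and 7.04, 7.89 and 7.02 CPM at 24 h. Its level at 24 h was 3.37-fold lower, and the libraries of each time were close to each other (log2 fold change -1.75, SE 0.095, adjusted p = 1.62e-22). SERPINF1, which encodes the secreted pigment epithelium-derived factor (chr17:1761959-1777574), had 13.7, 11.8 and 11.4 CPM at 0 h and 5.03, 3.85 and 4.16 CPM at 24 h (log2 fold change -1.51, SE 0.093, adjusted p = 2.79e-20). HAS2, the gene of a hyaluronan synthase, had 23.9, 24.4 and 27.4 CPM at 0 h and 8.91, 8.04 and 10.4 CPM at 24 h (log2 fold change -1.46, SE 0.14, adjusted p = 5.78e-13). In both, even the closest libraries of the 2 times were more than 2-fold apart.

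CRABP2, a carrier of retinoic acid, had 16.7, 15.3 and 17.1 CPM at 0 h and 5.85, 7.68 and 6.81 CPM at 24 h (log2 fold change -1.27, SE 0.083, adjusted p = 3.96e-19). EEF1A2, the tissue-restricted form of translation elongation factor 1 alpha, had 36.4, 42 and 37.9 CPM at 0 h and 17.3, 18.8 and 14.4 CPM at 24 h (log2 fold change -1.20, SE 0.078, adjusted p = 2.53e-19). The general form, EEF1A1, is a separate gene, and its log2 fold change was -0.18 (SE 0.061). IL32, an inflammatory cytokine gene, had 18.7, 19.5 and 15.6 CPM at 0 h and 8.74, 9.47 and 6.84 CPM at 24 h (log2 fold change -1.11, SE 0.13, adjusted p = 1.63e-08). The transmembrane protein gene TMEM132E had 12.3, 12.8 and 10 CPM at 0 h and 5.96, 5.7 and 4.48 CPM at 24 h (log2 fold change -1.13, SE 0.15, adjusted p = 2.77e-08).

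**Figure D3:**
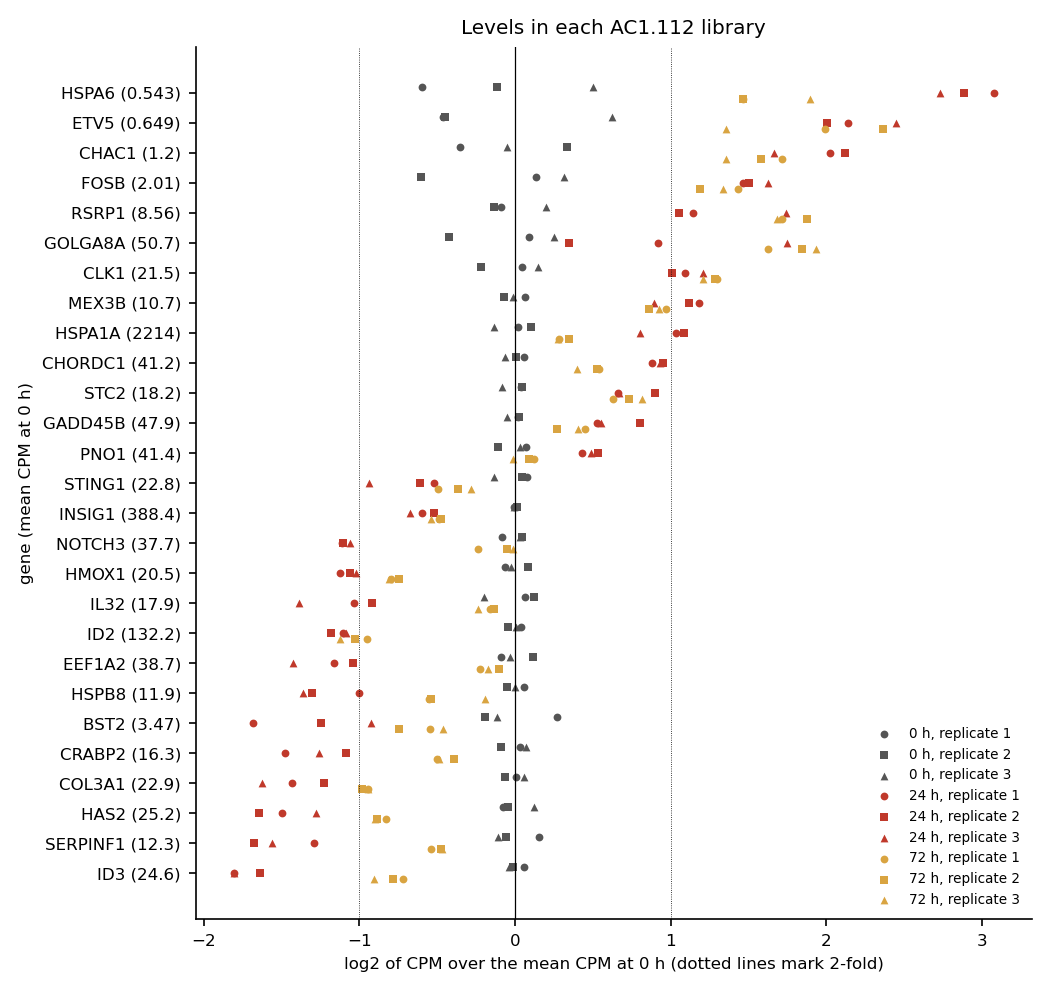
Level of 27 named genes in each AC1.112 library, as log2 of the CPM over the mean CPM at 0 h, given in brackets. Marker shape gives the replicate and colour the time. For ID3 and CRABP2 the 72 h libraries lie between those of 0 h and 24 h, for NOTCH3 and IL32 they overlap those of 0 h, for ID2 they overlap the 24 h libraries, and for GOLGA8A and RSRP1 the triangle of 24 h replicate 3 lies among or beside the 72 h libraries.

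Cytosolic chaperone genes that changed mostly rose. Of 29 heat shock and chaperone genes tested, 12 rose and 3 fell, 41.4% and 10.3%, beside 10.8% and 12.6% of all genes tested, and the list's median log2 fold change was 0.16. Heat shock factor 1 is known to bind inverted repeats of the letters GAA upstream of such genes. HSPA6 is an inducible HSP70 gene that is nearly silent in unstressed cells, and HSPA1A and HSPA1B are a tandem pair. The bases just upstream of their RefSeq starts (GRCh38.p14) are shown because HSPA6 had the largest rise of the list and the pair encodes the main inducible HSP70, with matches to GAANNTTC and to the longer GAANNTTCNNGAA in capitals on either strand. Each sequence is the 250 bases before the start, on the plus strand, for HSPA6 at chr1:161524290-161524539, for HSPA1A at chr6:31815293-31815542 and for HSPA1B at chr6:31827488-31827737.
HSPA6: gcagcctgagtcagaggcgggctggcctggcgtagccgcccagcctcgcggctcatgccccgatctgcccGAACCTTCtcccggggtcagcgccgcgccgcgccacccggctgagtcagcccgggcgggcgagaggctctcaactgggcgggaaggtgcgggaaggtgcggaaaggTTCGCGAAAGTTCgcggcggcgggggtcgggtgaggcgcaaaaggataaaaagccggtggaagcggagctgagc
HSPA1A: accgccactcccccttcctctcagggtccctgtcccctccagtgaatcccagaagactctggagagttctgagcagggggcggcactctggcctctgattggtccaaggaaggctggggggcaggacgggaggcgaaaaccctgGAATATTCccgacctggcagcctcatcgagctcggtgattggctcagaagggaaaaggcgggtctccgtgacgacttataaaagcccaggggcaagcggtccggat
HSPA1B: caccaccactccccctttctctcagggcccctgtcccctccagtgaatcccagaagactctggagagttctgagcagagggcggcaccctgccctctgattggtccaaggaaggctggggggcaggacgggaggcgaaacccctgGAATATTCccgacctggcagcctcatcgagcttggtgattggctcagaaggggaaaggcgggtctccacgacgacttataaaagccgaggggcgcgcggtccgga
The first run of capitals in HSPA6 is 1 GAANNTTC match and the second is the longer motif, which contains the shorter. GAANNTTC is found in 6.77% of the 35116 promoters of 300 bases in the table, and GAANNTTCNNGAA in 0.49%. In at least 1 promoter the shorter motif was found for 10 of the 12 genes of the list that rose, for 3 of the 3 that fell, for 16 of all 27 members with an entry and for 8.21% of all genes in the table. The HSPA1A and HSPA1B stretches were identical at 235 of 249 aligned bases.

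HSPA6 had 0.358, 0.502 and 0.77 CPM at 0 h and 4.59, 4.01 and 3.61 CPM at 24 h. It was 7.86-fold higher at 24 h (log2 fold change 2.97, SE 0.24, adjusted p = 2.4e-15), and at 72 h its mean was 1.67 CPM, between those of the earlier times. HSPA1A had 2242, 2382 and 2018 CPM at 0 h and 4546, 4702 and 3871 CPM at 24 h. That is 1.98-fold, from an already high level (log2 fold change 0.98, SE 0.061, adjusted p = 2.91e-20). HSPA1B gave nearly the same values (log2 fold change 0.99, SE 0.061, adjusted p = 2.59e-20), and since reads of these copies can be assigned to either, the pair is best read as 1 measurement. The testis-rich relative HSPA1L, which shares their locus, also rose (log2 fold change 0.99, SE 0.13, adjusted p = 1.91e-08). CHORDC1, a co-chaperone of HSP90, had 42.9, 41.4 and 39.4 CPM at 0 h and 76, 79.7 and 78.6 CPM at 24 h (log2 fold change 0.92, SE 0.064, adjusted p = 3.67e-18). Smaller rises were seen for the J-domain co-chaperone DNAJB1 (log2 fold change 0.49, SE 0.044, adjusted p = 8.19e-14), for HSPH1 (0.69, SE 0.049), HSPA8 (0.51, SE 0.054) and HSP90AA1 (0.27, SE 0.051). The 3 that fell were HSPB8 and HSPB1, small heat shock protein genes, and SERPINH1, the gene of a collagen chaperone. HSPB8, which works with the co-chaperone BAG3, had 12.4, 11.5 and 11.9 CPM at 0 h and 5.93, 4.82 and 4.63 CPM at 24 h (log2 fold change -1.22, SE 0.11, adjusted p = 7.95e-14). BAG3 itself did not pass (log2 fold change 0.11, SE 0.064, adjusted p = 0.218), but it did without 24 h replicate 3 (adjusted p = 0.0315). All 12 genes of the list that rose still passed without 24 h replicate 3.

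The unfolded protein response raises chaperones of the endoplasmic reticulum. Of 31 genes of its list, 2 rose and 3 fell, 6.45% and 9.68%. These shares were a little under the 10.8% and 12.6% of all genes tested. The 2 that rose were DNAJB9 (log2 fold change 0.61, SE 0.084, adjusted p = 5.6e-08) and HERPUD1 (log2 fold change 0.42, SE 0.067, adjusted p = 1.92e-06). HSPA5, the gene of the compartment's main chaperone BiP, had 502, 521 and 475 CPM at 0 h and 463, 502 and 445 CPM at 24 h. These values overlapped between times (log2 fold change -0.09, SE 0.051, adjusted p = 0.226). CALR, the gene of the calcium-binding chaperone calreticulin, fell from 3 libraries between 752 and 802 CPM to 3 between 581 and 633 CPM (log2 fold change -0.36, SE 0.047, adjusted p = 1.84e-08). HSP90B1 and CREB3L2 fell too, by less.

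Of the lists with at least 10 genes tested, that of ATF4 and the amino acid response had the largest share of members that rose. ATF4 is translated when amino acids are short or protein folding is strained, and it raises genes for amino acid synthesis, import and tRNA charging. Of 45 genes tested, 25 rose and 5 fell, 55.6% and 11.1%, with a median of 0.27. Of the 25 that rose, 24 still passed without 24 h replicate 3, VEGFA being the exception, and 2 of the 5 still fell. CHAC1, an enzyme that breaks down glutathione, had the largest rise, and the 250 bases before its start (plus strand, chr15:40953221-40953470, GRCh38.p14) are shown with a match to TGATGNAA, a composite site of ATF4 and C/EBP proteins, in capitals.
CHAC1: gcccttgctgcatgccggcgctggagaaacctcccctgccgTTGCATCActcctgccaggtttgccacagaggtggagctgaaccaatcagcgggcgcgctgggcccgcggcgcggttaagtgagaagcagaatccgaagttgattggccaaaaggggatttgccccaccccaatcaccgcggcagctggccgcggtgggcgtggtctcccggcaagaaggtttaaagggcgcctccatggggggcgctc
The match lies on the minus strand, and the motif is found in 3.62% of all promoters in the table on either strand. At least 1 promoter held it for 9 of the 23 members that rose and have an entry, for 15 of all 38 members with an entry, which is about the same share, and for 4.46% of all genes.

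CHAC1 had 0.94, 1.51 and 1.16 CPM at 0 h and 4.88, 5.22 and 3.81 CPM at 24 h, a rise of 3.88-fold (log2 fold change 1.95, SE 0.21, adjusted p = 1.37e-10). STC2, a secreted glycoprotein gene of the stress response, had 18.7, 18.8 and 17.2 CPM at 0 h and 28.8, 33.9 and 28.9 CPM at 24 h (log2 fold change 0.74, SE 0.079, adjusted p = 3.66e-11). DDIT3, the gene of the transcription factor CHOP, had 5.46, 3.78 and 6.62 CPM at 0 h and 6.93, 8.07 and 9.72 CPM at 24 h (log2 fold change 0.66, SE 0.15, adjusted p = 0.000791). STC2 and DDIT3 lay higher in each 24 h library than in any 0 h library, and for CHAC1 this was a condition of its choice. SLC7A11, the cystine importer, rose (log2 fold change 0.56, SE 0.13, adjusted p = 0.00131), as did DDIT4, an inhibitor of mTORC1 signalling (log2 fold change 0.56, SE 0.063, adjusted p = 2.48e-10). ATF4 itself rose slightly (log2 fold change 0.22, SE 0.048, adjusted p = 0.000235). ASNS, which makes asparagine, had 76.8, 75 and 78.7 CPM at 0 h and 93.1, 94.5 and 94.3 CPM at 24 h, a small rise with close replicates (log2 fold change 0.29, SE 0.055, adjusted p = 4.32e-05). PSAT1, of serine synthesis, rose by about as much (log2 fold change 0.30, SE 0.048, adjusted p = 1.84e-06). TRIB3, a pseudokinase gene that ATF4 and CHOP induce, did not pass (log2 fold change -0.02, SE 0.074, adjusted p = 0.86).

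Many genes that build ribosomes rose, and few genes of ribosomal proteins changed. Of 50 ribosome biogenesis genes, which make and fold ribosomal RNA in the nucleolus, 26 rose and 0 fell in edgeR's test, 52% and 0%, with 2 lower at an unadjusted p under 0.05 and 2 lower in DESeq2, and the median was 0.14. Each rise was small. PNO1, of small subunit assembly, had 43.5, 38.4 and 42.3 CPM at 0 h and 55.7, 59.9 and 58 CPM at 24 h (log2 fold change 0.48, SE 0.059, adjusted p = 1.68e-09). POLR1C, a subunit of RNA polymerases I and III, had 37.4, 34 and 36.3 CPM at 0 h and 52.9, 47 and 50.7 CPM at 24 h (log2 fold change 0.48, SE 0.071, adjusted p = 2.55e-07). RRS1 (0.47, SE 0.074), UTP20 (0.46, SE 0.060), UTP15 (0.34, SE 0.071) and NOP16 (0.31, SE 0.077) followed. Of the 26, 24 still passed without 24 h replicate 3. MYC, a known driver of these genes, did not pass, with 779, 784 and 776 CPM at 0 h and 815, 806 and 749 CPM at 24 h (log2 fold change 0.02, SE 0.047, adjusted p = 0.822). Of 79 cytosolic ribosomal protein genes, 4 rose and 6 fell, shares under the background. The 4 that rose were RPL21, RPL27, RPS7 and RPS15A. Without 24 h replicate 3 none of the 4 passed and 2 members fell.

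Other splicing genes rose beside CLK1. Of 36 splicing kinase and SR protein genes, 18 rose and 1 fell (HNRNPA1), 50% and 2.78%, with a median of 0.16. CLK4, a second kinase of SR proteins, had 9.02, 7.37 and 9.67 CPM at 0 h and 11.7, 13.1 and 16.8 CPM at 24 h (log2 fold change 0.68, SE 0.14, adjusted p = 0.000325). LUC7L3, a U1 snRNP-associated factor, had 143, 127 and 141 CPM at 0 h and 184, 184 and 228 CPM at 24 h (log2 fold change 0.54, SE 0.10, adjusted p = 0.000185), and LUC7L rose too (log2 fold change 0.40, SE 0.076, adjusted p = 4.95e-05). In CLK4 and LUC7L3 replicate 3 was the highest 24 h library. Without it, 11 of the 18 still passed and 2 members fell, and NKTR was among those that did not (log2 fold change 0.31, adjusted p = 0.171). The share of long intergenic noncoding RNA counts, given above, was highest in the same library, and its part in these rises was not tested.

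Immediate early genes respond to growth factor and stress signals through the MAP kinase ERK and its relatives. Of 39 immediate early and AP-1 genes, 15 rose and 2 fell, 38.5% and 5.13%, and the median was 0.20. FOSB, an AP-1 subunit, had 2.21, 1.32 and 2.5 CPM at 0 h and 5.55, 5.7 and 6.2 CPM at 24 h. Its 3 libraries at 24 h were close together and all above 0 h (log2 fold change 1.55, SE 0.18, adjusted p = 9.1e-10). EGR1, a zinc finger factor, had 34.5, 37.7 and 39.6 CPM at 0 h and 56.9, 62.2 and 58.6 CPM at 24 h (log2 fold change 0.67, SE 0.094, adjusted p = 3.33e-07). EGR3 (log2 fold change 1.07, SE 0.28, adjusted p = 0.0027) and the orphan nuclear receptor NR4A2 (log2 fold change 0.79, SE 0.16, adjusted p = 0.000173) rose as well. FOS had 13, 14.1 and 14 CPM at 0 h and 16.8, 20.8 and 19.5 CPM at 24 h (log2 fold change 0.48, SE 0.11, adjusted p = 0.000894), and JUN, already high, had 561, 602 and 549 CPM at 0 h and 710.3, 711 and 668 CPM at 24 h (log2 fold change 0.29, SE 0.046, adjusted p = 1.99e-06). The members that fell were DUSP1, a phosphatase that ends MAP kinase signals (log2 fold change -0.20, SE 0.070, adjusted p = 0.0348), and KLF4. EGR2, IER2 and DUSP10 no longer passed without 24 h replicate 3, nor did DUSP1.

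Feedback genes of the same pathway were read from a second list, on which 8 of 17 rose and 2 fell (GADD45G and IL17RD), 47.1% and 11.8%. ETV5, an ETS factor that ERK signalling induces, had 0.47, 0.476 and 1 CPM at 0 h and 2.86, 2.61 and 3.55 CPM at 24 h, a rise of 4.9-fold (log2 fold change 2.29, SE 0.29, adjusted p = 1.57e-08). GADD45B, a stress-induced regulator of MAP kinases, had 48.6, 48.8 and 46.3 CPM at 0 h and 69.1, 83.5 and 70.4 CPM at 24 h (log2 fold change 0.63, SE 0.072, adjusted p = 2.95e-10), while its relative GADD45G had 40.6, 43.4 and 43 CPM at 0 h and 25.1, 25.7 and 25.6 CPM at 24 h (log2 fold change -0.73, SE 0.070, adjusted p = 1.09e-12). SPRY4, an inhibitor of the pathway, was near the limit of detection, with 12 counts in all at 0 h and 39 at 24 h, a ratio of 3.47 (95% counting interval 1.78 to 7.29). Its call was lost without 24 h replicate 3 (adjusted p = 0.158). DUSP6, another ERK target, did not pass (log2 fold change 0.70, SE 0.43, adjusted p = 0.263).

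Among genes of BMP signalling more fell than rose. Of 38 genes of the BMP, TGF-beta and ID list, 2 rose (SMAD1 and TGIF1) and 14 fell, 36.8%, with a median of -0.04. Ligands and targets were both among those that fell. BMP2, a ligand, had 9.29, 10.1 and 8.63 CPM at 0 h and 6.05, 5.1 and 5.88 CPM at 24 h (log2 fold change -0.72, SE 0.15, adjusted p = 0.00029). Among targets, ID2 (chr2:8678845-8684453) had 136, 128 and 133 CPM at 0 h and 61.4, 58.3 and 62.3 CPM at 24 h (log2 fold change -1.12, SE 0.062, adjusted p = 2.72e-22). ID1 had 3.56, 3.46 and 3.31 CPM at 0 h and 1.64, 2 and 1.54 CPM at 24 h (log2 fold change -1.0, SE 0.22, adjusted p = 0.000433), and ID4 changed least of the 4 ID genes (log2 fold change -0.19, SE 0.048, adjusted p = 0.00223). SMAD6, an inhibitor that BMP signals induce, had 6.22, 7.48 and 7.24 CPM at 0 h and 3.77, 4.04 and 4.08 CPM at 24 h (log2 fold change -0.81, SE 0.15, adjusted p = 2e-05), and ATOH8, a helix-loop-helix factor, had 1.59, 2.78 and 1.31 CPM at 0 h and 0.789, 0.789 and 1.02 CPM at 24 h (log2 fold change -1.14, SE 0.35, adjusted p = 0.0125), a pass that was lost without 0 h replicate 2 (-0.77, adjusted p = 0.177). SMAD7 (log2 fold change -0.03, SE 0.13, adjusted p = 0.901) and the decoy receptor gene BAMBI (log2 fold change 0.07, SE 0.12, adjusted p = 0.721), which are also targets, did not pass. Of the 14, 12 still passed without 24 h replicate 3. The Wnt and Notch list was nearer to the background. Of its 37 genes, 3 rose (AXIN1, LFNG and NOTCH1) and 6 fell, 8.11% and 16.2%, beside 10.8% and 12.6% of all genes tested. Among the 6, NOTCH3, a Notch receptor, had 35.6, 38.9 and 38.6 CPM at 0 h and 17.4, 17.5 and 18.1 CPM at 24 h, with no overlap (log2 fold change -1.09, SE 0.093, adjusted p = 5.78e-13). The Wnt receptor FZD2 fell by less (log2 fold change -0.63, SE 0.11, adjusted p = 4.04e-06).

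The extracellular matrix list had the largest share of members that fell among the same lists. Of 57 matrix and adhesion genes, 35 fell and 3 rose (the integrin genes ITGA2, ITGA6 and ITGB8), 61.4% and 5.26%, with a median of -0.42. COL3A1, a fibrillar collagen gene (chr2:188974320-189012746), had 23, 21.9 and 23.8 CPM at 0 h and 8.48, 9.77 and 7.42 CPM at 24 h (log2 fold change -1.42, SE 0.095, adjusted p = 2.97e-17). COL1A1 had 11.4, 10.9 and 10.1 CPM at 0 h and 5.49, 5.43 and 5.41 CPM at 24 h (log2 fold change -0.99, SE 0.098, adjusted p = 2.49e-12) and COL5A1 20, 24.8 and 20.2 CPM at 0 h and 10.3, 10.4 and 12.1 CPM at 24 h (log2 fold change -0.99, SE 0.12, adjusted p = 1.12e-08). The basement membrane collagen COL4A1 had 197, 212 and 197 CPM at 0 h and 148, 150.2 and 152 CPM at 24 h (log2 fold change -0.43, SE 0.055, adjusted p = 9.05e-09). CDH3, the gene of P-cadherin, had 4.9, 4.97 and 4.62 CPM at 0 h and 1.58, 2.28 and 2.15 CPM at 24 h (log2 fold change -1.27, SE 0.14, adjusted p = 4.65e-11). In each of these 5 genes the times did not overlap, which for COL3A1 was a condition of its choice. Fibronectin, FN1, did not pass (log2 fold change -0.25, SE 0.10, adjusted p = 0.0724). The fibroblast marker list moved in the same direction: its 10 genes summed to 36.2 to 37.5 CPM at 0 h and 15.3 to 18.8 CPM at 24 h. COL3A1 and COL1A1 are 2 of those 10 and gave most of that sum. The fibroblast genes COL1A2, DCN, LUM, PDGFRB and POSTN together reached at most 2.39 CPM, and FAP had no count. Of the 35, 32 still fell without 24 h replicate 3, and none of the 3 integrins passed.

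Cytoskeleton genes went the same way. Of 28 tubulin and microtubule genes, 13 fell and 1 rose, 46.4% and 3.57%. Of 36 actin, SRF and YAP target genes, 12 fell and 1 rose, 33.3% and 2.78%, beside 12.6% and 10.8% of all genes tested. The medians were -0.16 and -0.11. TUBB, a major beta-tubulin gene, had 2109.9, 2229 and 1918 CPM at 0 h and 1509, 1587 and 1330.5 CPM at 24 h (log2 fold change -0.50, SE 0.059, adjusted p = 7.21e-10). TUBB4A, a neuronal form, had 12.1, 14.4 and 12.3 CPM at 0 h and 7.22, 7.71 and 5.47 CPM at 24 h (log2 fold change -0.93, SE 0.11, adjusted p = 6.57e-10). FLNA, which crosslinks actin, had 2179.7, 2416 and 2263 CPM at 0 h and 1650.1, 1613 and 1541 CPM at 24 h (log2 fold change -0.51, SE 0.056, adjusted p = 7.11e-11). The riser among microtubule genes was STMN4, a stathmin gene, with 0.671, 0.661 and 0.578 CPM at 0 h and 1.4, 1.91 and 1.66 CPM at 24 h (log2 fold change 1.36, SE 0.33, adjusted p = 0.00137). The neurofilament genes NEFL (log2 fold change -0.49, SE 0.050, adjusted p = 1.21e-11) and NEFM (log2 fold change -0.42, SE 0.076, adjusted p = 3.86e-05) fell with the tubulins.

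Antiviral genes mostly fell or did not pass. Interferon-stimulated genes carry elements that the factor ISGF3 binds, and they rise when cells sense viral nucleic acid. Of 46 genes of the list, 3 rose (DTX3L, IRF9 and TRIM25) and 16 fell, 6.52% and 34.8%, with a median of -0.16. The 250 bases before the starts of 2 that fell are shown, with matches to GAAANNGAAA, a short form of the interferon-stimulated response element, in capitals. BST2 is on the minus strand at chr19:17405631-17405880 and IFIT1 on the plus strand at chr10:89392373-89392622 (GRCh38.p14).
BST2: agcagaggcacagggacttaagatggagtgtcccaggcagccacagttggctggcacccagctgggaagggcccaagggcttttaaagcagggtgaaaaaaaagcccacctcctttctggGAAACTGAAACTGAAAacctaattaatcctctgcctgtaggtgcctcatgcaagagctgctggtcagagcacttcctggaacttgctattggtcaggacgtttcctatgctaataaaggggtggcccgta
IFIT1: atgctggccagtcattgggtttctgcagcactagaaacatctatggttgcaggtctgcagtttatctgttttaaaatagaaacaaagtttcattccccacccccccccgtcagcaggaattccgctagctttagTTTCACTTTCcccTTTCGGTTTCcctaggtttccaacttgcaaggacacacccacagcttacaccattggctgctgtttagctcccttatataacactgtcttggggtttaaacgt
Each holds 2 matches, which overlap in BST2 and lie on the opposite strand to the gene in IFIT1. The motif is found in 3.57% of all promoters in the table, and, counting a gene with at least 1 such promoter, for 11 of the 14 members that fell and have an entry, for 29 of all 41 members with an entry and for 4.38% of all genes.

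BST2, which tethers virions to the cell surface, had 4.18, 3.04 and 3.2 CPM at 0 h and 1.08, 1.46 and 1.83 CPM at 24 h (log2 fold change -1.26, SE 0.20, adjusted p = 8.24e-07). IFIT1, which binds viral RNA, had 2.1, 1.61 and 1.81 CPM at 0 h and 0.877, 0.577 and 1.1 CPM at 24 h (log2 fold change -1.11, SE 0.25, adjusted p = 0.000442). Both were low, and the times did not overlap. IFI44L fell as well (log2 fold change -1.22, SE 0.29, adjusted p = 0.000859). ISG15 (log2 fold change 0.37, SE 0.15, adjusted p = 0.0661) and MX1 (log2 fold change -0.28, SE 0.38, adjusted p = 0.658), among the best known of these genes, did not pass. Of 13 sensor and interferon genes, 4 fell and 0 rose in edgeR's test, with 0 higher at an unadjusted p under 0.05 and 0 in DESeq2. STING1, the adaptor that answers cytosolic DNA, had 24.1, 23.5 and 20.8 CPM at 0 h and 15.9, 14.9 and 11.9 CPM at 24 h (log2 fold change -0.68, SE 0.084, adjusted p = 2.21e-09). TLR3, a sensor of double-stranded RNA, had 28 counts in all at 0 h and 4 at 24 h, 6.55-fold lower with a 95% counting interval of 2.29 to 25.7. The adaptor genes TICAM1 and MAVS fell by less. Their log2 fold changes were -0.27 (SE 0.087, adjusted p = 0.0191) and -0.16 (SE 0.052, adjusted p = 0.0174). Neither passed in a fit of the 6 AC1.112 libraries only (adjusted p = 0.0576 and 0.0524). Both also lost their pass once counts were thinned to 24727028 per library (adjusted p = 0.165 and 0.071). CGAS, which makes the signal that STING1 receives, had 7 and 17 counts in all at the 2 times. Of 28 NF-kB targets, 6 rose and 1 fell, 21.4% and 3.57%. NFKB1, a subunit, had 39.1, 40.5 and 42.5 CPM at 0 h and 57.4, 56.6 and 53.3 CPM at 24 h (log2 fold change 0.46, SE 0.060, adjusted p = 1.79e-08), and NFKBIA, the inhibitor that NF-kB induces, had 23.6, 22.9 and 22.6 CPM at 0 h and 22.9, 23.4 and 23.7 CPM at 24 h (log2 fold change 0.02, SE 0.069, adjusted p = 0.891). The chemokine CXCL2 was called only with 24 h replicate 3 (adjusted p = 0.597 without it).

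No member of the glycolysis or lipid synthesis lists both passed and changed by 2-fold, and on the oxidative stress list only HMOX1 did. Of 42 glycolysis and hypoxia genes, 18 fell and 4 rose (ANKRD37, HK2, SLC2A1 and VEGFA), 42.9% and 9.52%. TXNIP, which limits glucose uptake and follows glucose supply, had 94.6, 91.5 and 92.1 CPM at 0 h and 60.9, 64 and 63 CPM at 24 h (log2 fold change -0.57, SE 0.049, adjusted p = 2.64e-14), and its relative ARRDC4 had 158, 153 and 141 CPM at 0 h and 107, 109.6 and 106 CPM at 24 h (log2 fold change -0.49, SE 0.047, adjusted p = 9.58e-13). GAPDH fell slightly (log2 fold change -0.27, SE 0.059, adjusted p = 0.000419). Of those 18 and 4, 14 still fell and 2 still rose without 24 h replicate 3. Of 40 lipid synthesis genes, 11 fell and 5 rose, 27.5% and 12.5%. INSIG1, which holds the sterol sensor of SREBP factors in the endoplasmic reticulum and is itself an SREBP target, had 387, 393 and 386 CPM at 0 h and 256, 271 and 244 CPM at 24 h (log2 fold change -0.60, SE 0.046, adjusted p = 2.54e-16). FASN, which makes palmitate, had 589.6, 679 and 613 CPM at 0 h and 507, 505 and 463 CPM at 24 h (log2 fold change -0.35, SE 0.055, adjusted p = 9.65e-07). HMGCS1, an enzyme of sterol synthesis, had 632, 622 and 630.5 CPM at 0 h and 534, 557 and 518 CPM at 24 h (log2 fold change -0.23, SE 0.042, adjusted p = 2.91e-05). Of those 11 and 5, 10 still fell and 1 still rose without 24 h replicate 3. Of 25 oxidative stress genes, 8 fell and 4 rose (GCLC, NFE2L2, PGD and SLC7A11), 32% and 16%. HMOX1, which degrades haem, had 19.6, 21.7 and 20.1 CPM at 0 h and 9.41, 9.83 and 10.1 CPM at 24 h, with no overlap (log2 fold change -1.07, SE 0.087, adjusted p = 2.4e-15).

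Respiration genes depended on the library set. Of 67 nuclear genes of oxidative phosphorylation, 11 fell and 2 rose (COX7B and NDUFS3), 16.4% and 2.99%, beside 12.6% and 10.8% of all genes tested. When 24 h replicate 3 was left out, 4 fell. Of 13 genes on the mitochondrial genome, MT-CO3 and MT-ND3 fell, and the list's median was -0.26. MT-CO3, a subunit of cytochrome c oxidase, had 4712, 4815 and 4757 CPM at 0 h and 3362, 3737 and 4221 CPM at 24 h, with replicate 3 the highest at 24 h (log2 fold change -0.34, SE 0.12, adjusted p = 0.0437). Without 0 h replicate 2 it was -0.35, adjusted p = 0.0813. Without 24 h replicate 3, 7 of the 13 fell and the median was -0.44.

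Cell cycle genes changed by small amounts in AC1.112. Of 52 G2/M and mitosis genes, 14 fell and 5 rose, 26.9% and 9.62%. Of 55 G1/S and replication genes, 12 rose and 8 fell, 21.8% and 14.5%, beside 10.8% and 12.6% of all genes tested. The medians were -0.04 and 0.00. UBE2C, the ubiquitin carrier of the anaphase-promoting complex, had 146, 142 and 132 CPM at 0 h and 113, 114 and 97.3 CPM at 24 h (log2 fold change -0.37, SE 0.065, adjusted p = 1.47e-05). TOP2A fell slightly (log2 fold change -0.21, SE 0.042, adjusted p = 9.34e-05). MKI67 (log2 fold change -0.01, SE 0.084, adjusted p = 0.975), CDK1 (log2 fold change -0.05, SE 0.053, adjusted p = 0.524) and CCNB1 (log2 fold change -0.03, SE 0.053, adjusted p = 0.753) did not pass. E2F8, a repressor made in S phase, had 10.7, 10.5 and 11.1 CPM at 0 h and 16.9, 14.2 and 14.8 CPM at 24 h (log2 fold change 0.51, SE 0.11, adjusted p = 0.000174). CCNE1, the cyclin that starts replication, had 14, 14.6 and 13.2 CPM at 0 h and 17.1, 17.5 and 17.9 CPM at 24 h (log2 fold change 0.33, SE 0.076, adjusted p = 0.000766). Among the brakes, 8 of 20 rose and 2 fell, 40% and 10%. CDKN1A, the p21 gene and a p53 target, had 239, 240.3 and 222 CPM at 0 h and 181, 186 and 169 CPM at 24 h (log2 fold change -0.39, SE 0.047, adjusted p = 1.38e-09), whereas CDKN1B rose (log2 fold change 0.26, SE 0.053, adjusted p = 0.00011). The p53 target GDF15 had 6.06, 5.34 and 4.74 CPM at 0 h and 2.75, 2.25 and 2.56 CPM at 24 h (log2 fold change -1.10, SE 0.17, adjusted p = 3.76e-07), and MDM2 did not pass (log2 fold change 0.02, SE 0.045, adjusted p = 0.858). Without 24 h replicate 3, 11 of the 14 G2/M genes still fell, 2 of the 5 still rose, and 4 of the 8 brakes still rose. Of the G1/S genes, 9 of the 12 still rose and 3 of the 8 still fell.

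Of the enzymes that mark chromatin, both directions were seen. On the histone acetylation list 9 of 45 rose and 12 fell, and on the histone and DNA methylation list 7 of 57 rose and 9 fell. The shares were 20% and 26.7% on the first and 12.3% and 15.8% on the second, the latter near the 10.8% and 12.6% of all genes. Of the 9 methylation genes, 4 still fell without 24 h replicate 3. HDAC4, a class IIa deacetylase, had 10, 10.5 and 11.4 CPM at 0 h and 15.7, 15.6 and 14.9 CPM at 24 h (log2 fold change 0.54, SE 0.10, adjusted p = 4.61e-05). HDAC6, a cytoplasmic deacetylase of tubulin, had 46.4, 40.5 and 40.4 CPM at 0 h and 32.4, 27.5 and 33.2 CPM at 24 h (log2 fold change -0.46, SE 0.069, adjusted p = 5.11e-07). HDAC1, a target of many inhibitors, had 210.0, 210.5 and 211 CPM at 0 h and 187, 184 and 189 CPM at 24 h (log2 fold change -0.17, SE 0.043, adjusted p = 0.0016), and HDAC2 did not pass (log2 fold change 0.01, SE 0.050, adjusted p = 0.937). The acetyltransferase genes CREBBP (log2 fold change 0.34, SE 0.086, adjusted p = 0.00338) and EP300 (log2 fold change 0.29, SE 0.070, adjusted p = 0.00123) rose slightly, though without 0 h replicate 1 they were 0.25, adjusted p = 0.0613 and 0.20, adjusted p = 0.0512. The DNA demethylase gene TET3 (log2 fold change 0.40, SE 0.090, adjusted p = 0.000595) and the histone methyltransferase gene EZH2 (log2 fold change 0.22, SE 0.048, adjusted p = 0.000387) rose too. Replication-dependent histone genes make messages without a poly(A) tail, so poly(A) libraries hold few of them. Of 42 such genes, 5 rose and 1 fell (H4C16, adjusted p = 0.0496, a pass lost in most fits without 1 library), with H2BC12 (log2 fold change 0.67, SE 0.078, adjusted p = 4.13e-10) among the risers. Histone genes resemble each other closely, so their reads are uncertain.

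Genes of AAV entry and of the lysosome leaned to lower levels. Of 34 endocytosis and AAV entry genes, 11 fell and 0 rose in edgeR's test, 32.4% and 0%, beside 12.6% and 10.8% of all genes tested. On that list 2 were higher at an unadjusted p under 0.05 and 0 in DESeq2, and the median was -0.07. KIAA0319L, the gene of the AAV receptor, had 121, 119.6 and 119 CPM at 0 h and 106, 101 and 97.6 CPM at 24 h (log2 fold change -0.24, SE 0.050, adjusted p = 0.000219). GPR108, another entry factor, had 45.2, 43.6 and 40.6 CPM at 0 h and 40.4, 38.4 and 36.9 CPM at 24 h (log2 fold change -0.16, SE 0.059, adjusted p = 0.0352), which lost its pass without 24 h replicate 3 (adjusted p = 0.107). FURIN, a Golgi protease, had 117, 124 and 114 CPM at 0 h and 95.8, 96.1 and 86.2 CPM at 24 h (log2 fold change -0.35, SE 0.057, adjusted p = 2.57e-06). Of 35 lysosome and autophagy genes, 9 fell and 3 rose, 25.7% and 8.57%. The risers were the autophagy genes ATG14 (log2 fold change 0.78, SE 0.099, adjusted p = 6.41e-09), ATG5 (log2 fold change 0.35, SE 0.062, adjusted p = 1.42e-05) and ATG7. CTSB, a cathepsin gene, had 125, 118 and 113 CPM at 0 h and 95.9, 90.7 and 85.4 CPM at 24 h (log2 fold change -0.39, SE 0.055, adjusted p = 1.17e-07).

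The lists not described above were mixed. Of 29 p53 targets, 9 rose and 7 fell, 31% and 24.1%. SESN2, a stress-induced brake on mTORC1, rose (log2 fold change 0.32, SE 0.056, adjusted p = 8.97e-06) and BAX, which opens the mitochondrial membrane in apoptosis, fell (log2 fold change -0.28, SE 0.056, adjusted p = 8.21e-05). Of 39 repair genes 6 rose and 6 fell, 15.4% each (3 and 4 genes without 24 h replicate 3), beside 10.8% and 12.6% of all genes tested. Of 27 apoptosis regulators 7 rose and 3 fell, 25.9% and 11.1%. Of 9 metallothionein and zinc transport genes 3 rose and 2 fell, 33.3% and 22.2%. BCL2L11, which promotes apoptosis, rose (log2 fold change 0.38, SE 0.060, adjusted p = 1.61e-06). Metallothionein MT2A, which binds zinc, had 36.4, 41.4 and 34.3 CPM at 0 h and 30, 29.4 and 23.6 CPM at 24 h (log2 fold change -0.44, SE 0.097, adjusted p = 0.000565). Of 11 replication-independent histone genes, 1 rose and 3 fell. Among markers of cell types, 5 of 24 neuronal genes rose and 6 fell, 1 of 13 epithelial genes rose and 3 fell, 3 of 6 fibroblast genes fell (COL1A1, COL3A1 and DCN), and 1 each of the 19 kidney and 10 blood cell genes tested fell (LHX1 and CSF1R). Without 24 h replicate 3, CSF1R did not pass and 1 kidney gene rose.

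Below 8 CPM, the rule that chose leading genes named 5 genes in each direction. Beside HBB, HSPA6, ETV5 and CHAC1, the germ cell nuclear antigen gene GCNA rose, with 0.313, 0.37 and 0.539 CPM at 0 h and 1.02, 1.3 and 2.5 CPM at 24 h (log2 fold change 2.02, SE 0.38, adjusted p = 2.95e-05). Replicate 3 was the highest 24 h library, and without it the log2 fold change was 1.54. The lower genes were IQSEC3, SYT6, SLC38A3, COL17A1 and CTF1. SYT6, a synaptotagmin gene, had 72, 86 and 33 counts at 0 h and 17, 17 and 5 at 24 h (log2 fold change -2.17, SE 0.31, adjusted p = 1.74e-07). SLC38A3, a glutamine transporter gene, had 111 counts in all at 0 h and 24 at 24 h (log2 fold change -2.10, SE 0.32, adjusted p = 4.9e-07). COL17A1, a hemidesmosome collagen gene, had 2.77, 3.25 and 2.66 CPM at 0 h and 0.701, 0.516 and 0.873 CPM at 24 h (log2 fold change -2.05, SE 0.29, adjusted p = 1.86e-07).

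The response of AC1.112 was then set beside the same comparison in the other lines, which share no library with it. Of the 156 called genes of at least 1 CPM, the sign was the same in 143 in AC1.203, 147 in AC1.230, 138 in AC1P and 141 in 293F, and in all 4 for 116. Over all genes of that level the sign was the same for 69.5%, 68.7%, 66.6% and 68.2%. The root mean square log2 fold change was 0.310 in AC1.112, against 0.261 in AC1P, 0.322 in AC1.230, 0.454 in 293F and 0.472 in AC1.203. A test of the difference itself, AC1.112 minus the mean of the 4 lines, called 35 genes higher and 70 lower at 2-fold or more (0.165% and 0.33% of the genes tested), and 871 and 1048 with no minimum (4.1% and 4.93%). No protein-coding gene of at least 8 CPM was called. Without 293F the counts at 2-fold were 22 and 19. They were 18 and 60 without 24 h replicate 3, and 18 and 35 without 0 h replicate 2.

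**Figure D4:**
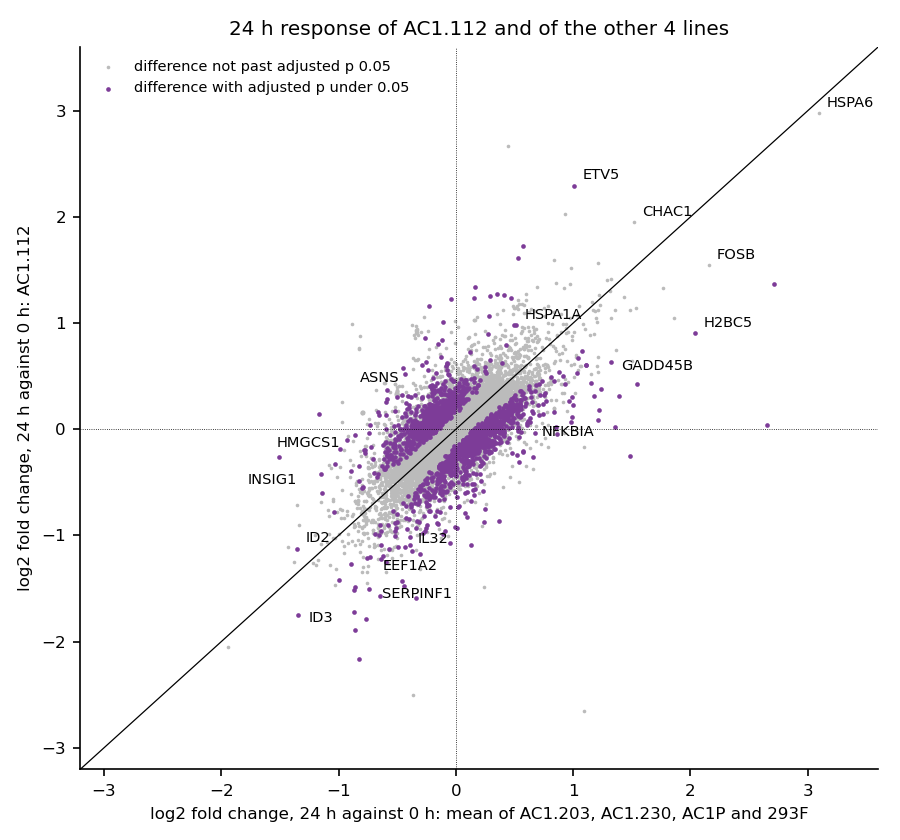
Log2 fold change at 24 h against 0 h in AC1.112 (vertical) and as the mean of AC1.203, AC1.230, AC1P and 293F (horizontal) for the 14445 genes of at least 1 CPM, with genes whose difference passed in purple and the line of equal response. HSPA6 and CHAC1 lie near the line, SERPINF1 and ID3 below it, and INSIG1, HMGCS1 and HSPA1A above it.

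The HSP70 pair rose more in AC1.112 than in the mean of the other lines. HSPA1A rose by 0.98 here and by 0.49 on the log2 scale in the mean of the 4 others (difference 0.49, SE 0.068, adjusted p = 1.3e-06). By line it changed by 0.87 in AC1.203, 0.72 in AC1P, 0.48 in AC1.230 and -0.09 in 293F, which lowers the mean. For HSPA6 the test of the difference did not pass (difference -0.12, SE 0.29, adjusted p = 0.879). ASNS went against the mean, which was -0.29 (difference 0.58, SE 0.062, adjusted p = 9.62e-10). Both sterol genes named fell less than that mean. INSIG1 changed by -1.14 in the mean of the other lines (difference 0.54, SE 0.051, adjusted p = 1.65e-11) and HMGCS1 by -0.78 (difference 0.55, SE 0.047, adjusted p = 6.73e-13). In 293F alone INSIG1 changed by -2.06, so that line carries much of the gap, and in AC1P it fell by less than here, at -0.29. On the whole lipid synthesis list, 15 of 40 differences were higher and 3 lower. For ribosomal protein genes 18 of 79 differences were higher and 0 lower, and for oxidative phosphorylation genes 15 of 67 and 0, with 0 lower for either list at an unadjusted p under 0.05 and in DESeq2. For G2/M genes 14 of 52 were higher and 1 lower. Of all genes, 4.1% were higher and 4.93% lower. The list counts of differences, here and below, were not made again without 24 h replicate 3 or without 293F in the mean. Without 24 h replicate 3 the differences of RPS7 (0.28, adjusted p = 0.182), RPL27 (0.25, adjusted p = 0.219) and COX7B (0.40, adjusted p = 0.134) did not pass. In all of them it was the highest 24 h library. With 293F left out of the mean, RPS7 (0.33, adjusted p = 0.0617) and RPL27 (0.26, adjusted p = 0.107) did not pass either.

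Other genes moved further down, or up by less, in this clone than in the mean of the others. SERPINF1 fell by more than that mean, which was -0.74 (difference -0.77, SE 0.10, adjusted p = 3.03e-07). EEF1A2 (difference -0.47, SE 0.088, adjusted p = 0.000238), IL32 (difference -0.67, SE 0.15, adjusted p = 0.00276) and STING1 (difference -0.37, SE 0.093, adjusted p = 0.0062) did so too, STING1 not without 24 h replicate 3 (-0.28, adjusted p = 0.0831). Not every line fell by less, since EEF1A2 changed by -1.68 in AC1.203, and IL32 by -1.08 there, close to its value here. SERPINF1, EEF1A2 and IL32 were chosen for their large fall in AC1.112, and such a choice favours a larger change here than in the mean. Of the 156 called genes of at least 1 CPM, 45 differences passed, 43 of them larger in AC1.112 and 2 smaller. GADD45B rose by less than in the others, whose mean was 1.32 (difference -0.69, SE 0.081, adjusted p = 2.07e-08). Its level at 0 h was higher here, 47.9 ± 1.41 CPM (SD, n = 3), than in AC1.203 (20 ± 1.37), AC1.230 (11.9 ± 0.612), AC1P (18.9 ± 1.4) or 293F (28.6 ± 1.78). At 24 h the means of the 5 lines ranged from 34.3 to 74.3 CPM. NFKBIA, which did not pass here, changed in the mean of the others by 0.48 (difference -0.46, SE 0.078, adjusted p = 5.11e-05). Histone and DNA methylation genes had 13 of 57 differences lower and 0 higher (3 at an unadjusted p under 0.05, 0 in DESeq2), and actin, SRF and YAP targets had 10 of 36 lower and 0 higher (1 at an unadjusted p under 0.05, 0 in DESeq2). ETV5 rose more here than in the mean (difference 1.29, SE 0.34, adjusted p = 0.00958). Without 293F in the mean the difference was 0.72, adjusted p = 0.217, and without 24 h replicate 3 1.13, adjusted p = 0.0527. That mean joins unlike lines, since ETV5 went from 0.723 ± 0.241 to 7.55 ± 0.281 CPM (SD, n = 3) in AC1.203 and from 4.6 ± 0.102 to 2.93 ± 1.39 CPM in 293F.

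Since no protein-coding gene of at least 8 CPM met the 2-fold rule for the difference, 5 more genes of that level whose difference passed were picked after their values were seen. TP73, a p53 relative that E2F1 induces, had 18.6, 19.3 and 18.9 CPM at 0 h and 20.7, 22.3 and 16.8 CPM at 24 h, and the times overlapped (log2 fold change 0.07, SE 0.087, adjusted p = 0.601). In the other lines it changed by 1.5, 0.47, 0.31 and 1.65 on the log2 scale in the order AC1.203, AC1.230, AC1P and 293F (difference -0.91, SE 0.098, adjusted p = 9.62e-10). DHRS2, a mitochondrial dehydrogenase gene, likewise did not pass here (log2 fold change 0.11, SE 0.077, adjusted p = 0.316), and its mean in the other lines was 0.99 (difference -0.88, SE 0.087, adjusted p = 7.93e-11). NRP1, a co-receptor of semaphorins and VEGF, had 18.8, 20.7 and 17.3 CPM at 0 h and 10.7, 12.1 and 11.5 CPM at 24 h and fell in this clone (log2 fold change -0.73, SE 0.097, adjusted p = 1.94e-08), against a mean of -0.05 (difference -0.68, SE 0.11, adjusted p = 1.35e-05). On the other side were SDHAF4, an assembly factor of respiratory complex II (difference 0.80, SE 0.15, adjusted p = 0.00041), and CETN3, a centrin of the centrosome (difference 0.61, SE 0.088, adjusted p = 2.57e-06), whose mean log2 fold changes in the other lines were -0.99 and -0.42 and which did not pass here.

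The 72 h libraries give the later course, in a comparison that shares the 24 h and 0 h libraries. Of the 71 genes of at least 1 CPM called higher, 36 had a higher mean at 72 h than at 24 h and 35 lay between, while of the 85 lower genes 70 lay between the 24 h and 0 h means, 14 were back at 0 h or past it and 1 was lower still. These genes were chosen by their 24 h values, which favours means nearer to 0 h at 72 h. The counts include 24 h replicate 3, which lay nearer to the 72 h libraries than the other 24 h libraries did. They were not made again without it, nor for all genes tested.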

How the data were processed

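RNA from HEK293F lines before transfection and 24 h and 72 h after it was extracted with the Direct-zol-96 kit and sequenced from the Illumina Stranded mRNA kit, which selects poly(A) RNA, per the labels' protocols. The authors deposited raw read counts per gene, 60675 Ensembl identifiers in each of 45 libraries. Per the submitters' processing notes HISAT2, Subread, featureCounts and GRCh38 were used. Not given in the sources used here are their versions, the use of strand and the annotation release. Reads of near-identical copies and of antisense genes are therefore uncertain. Symbols were found for 41209 identifiers, and coordinates come from GENCODE release 29 on GRCh38, which need not be the authors' release.

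Counts were tested as deposited with edgeR 4.0.16 (R 4.3.3). All 45 libraries entered 1 quasi-likelihood fit with 15 groups of line and time, TMM scaling and filterByExpr (minimum count 10, total 15), which left 21242 genes. P-values were adjusted by Benjamini-Hochberg over these genes. A gene was called at an adjusted p under 0.05 and an absolute log2 fold change of at least 1, and "rose", "fell" and "passed" in a list need only the adjusted p. The difference from the other lines is a contrast in the same fit, AC1.112 minus the equally weighted mean of the other 4. Ratios of low counts carry exact 95% binomial intervals, and a group with no count was set to a floor of 3 counts over the group. Both cover counting error only. Counts were also simulated from gene means over all 45 libraries, with changes in AC1.112 at 24 h set only in genes above 1 CPM. Of 50 genes changed at each of 1.5, 2, 3 and 4-fold, 37, 44, 49 and 50 were recovered, with 10 false calls among 21242 genes. Recovery of changes in fainter genes was not tested.

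The 40 gene lists held 1379 symbols, of which 1372 had an identifier and 1291 were tested. The members and lists were chosen with earlier results of these data known. Named genes are the 10 highest and 10 lowest called protein-coding genes of at least 8 CPM with no overlap, 5 each below that level with at least 20 counts in every library of the higher time, up to 6 passing members per list with the largest change, and HBB. For the difference, the rule asked for 6 called genes each way of at least 8 CPM, and 0 met it. The remaining named genes, among them ATF4, ASNS, PSAT1, TRIB3, MYC, DNAJB1, HSPH1, HSPA8, HSP90AA1, BAG3, HSPA5, FOS, JUN, DUSP1, DUSP6, ID4, SMAD7, BAMBI, COL4A1, FN1, NEFL, NEFM, ISG15, MX1, CGAS, NFKBIA, GAPDH, HMGCS1, TOP2A, MKI67, CDK1, CCNB1, MDM2, HDAC1, HDAC2, EZH2, GPR108, GOLGA8B, NEAT1 and MALAT1, were chosen after their values were seen.

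Promoter sequences are from RefSeq (GRCh38.p14, 35116 promoters), and motifs were searched on both strands. Alternatives were RLE scaling, DESeq2 1.42.0, no filter, thinning to 24727028 counts, the 6 libraries alone, replicate blocks, each library left out, other call rules and a mean without 293F. Replicate numbers were tested for pairing. Same-numbered AC1.112 libraries at 0 h and 24 h had correlations of deviations of -0.03, 0.18 and 0.20, and different-numbered ones ran from -0.24 to 0.08. These values do not settle whether the libraries are paired. The main fit left them unpaired, with replicate blocks as an alternative.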

Additional observations from a re-analysis of the deposited data

Results flagged for a closer look

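The genes below were marked because their 24 h response in AC1.112 differed from the mean response of the other 4 lines, with an adjusted p under 0.05 in edgeR's test of that difference over all 21242 genes. The adjusted p-values run from 6.73e-13 for HMGCS1 to 0.0428 for RPL27. Values are differences of log2 fold changes, AC1.112 minus the mean of the others, and no cause was tested for any of them. Some of the genes were named for their large change in AC1.112, a choice that favours a larger change here than in the mean.

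Values above 0 mean a larger rise or a smaller fall in AC1.112, or a rise where the mean of the others fell. Among chaperones and stress genes the difference was 0.49 for HSPA1A, 0.48 for HSPA1B, 0.21 for HSP90AA1, 0.20 for JUN, 0.23 for ATF4, 0.58 for ASNS, 0.31 for PSAT1 and 1.29 for ETV5. In lipid synthesis and glucose-responsive genes it was 0.54 for INSIG1, 0.55 for HMGCS1 and 0.34 for ARRDC4. For cell cycle and growth genes it was 0.30 for CDK1, 0.19 for CCNB1, 0.19 for MYC and 0.61 for CETN3, and for genes of respiration and the ribosome 0.51 for COX7B, 0.80 for SDHAF4, 0.32 for RPL27 and 0.37 for RPS7. It was 0.23 for ID2 and 0.21 for ATG5. Several of these differences depended on single libraries. Without 24 h replicate 3, ID2 (0.19, adjusted p = 0.154), ATG5, COX7B, RPS7, RPL27, CCNB1 and ETV5 did not pass. Without 0 h replicate 2 these genes, ATF4, HSP90AA1 and MYC did not pass, nor did JUN without 0 h replicate 1. ATG5 did not pass with RLE scaling or in DESeq2, nor RPL27 with RLE scaling.

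When 293F was left out of the mean, MYC turned to -0.19, adjusted p = 0.0431. JUN then had 0.05, adjusted p = 0.672, and HSP90AA1, ETV5, CCNB1, RPL27, RPS7 and ATG5 did not pass either.

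Values below 0 mean a smaller rise or a larger fall in AC1.112, or a fall where the mean of the others rose. Genes of NF-kB, p53 and stress signalling had -0.69 for GADD45B, -0.46 for NFKBIA, -0.28 for NFKB1, -0.91 for TP73, -0.43 for SESN2, -0.36 for TRIB3, -0.34 for STC2, -0.22 for BAG3 and -0.46 for HSPB8. BMP, Notch and Wnt genes had -0.41 for ID3, -0.75 for BMP2, -0.42 for BAMBI, -0.44 for SMAD7, -0.45 for NOTCH3 and -0.38 for FZD2. For matrix, cytoskeleton and epithelial genes the difference was -0.42 for COL3A1, -0.34 for COL1A1, -0.24 for FLNA, -0.29 for KRT8, -0.25 for KRT18 and -0.32 for VIM. For antiviral and inflammatory genes it was -0.67 for IL32, -0.37 for STING1 and -2.52 for TLR3, and TLR3 rests on few counts.

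The other genes of this kind had -0.37 for CRABP2, -0.42 for CREBBP, -0.88 for DHRS2, -0.47 for EEF1A2, -0.30 for FURIN and -0.37 for H2BC12. Last came -0.68 for NRP1, -0.77 for SERPINF1, -1.40 for SLC38A3, -1.35 for STMN4, -1.34 for SYT6, -0.56 for TMEM132E and -0.24 for TXNIP.

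Of the genes with values below 0, H2BC12 had -0.08, adjusted p = 0.716 when 293F was left out of the mean. BAG3, BAMBI, BMP2, COL1A1, CREBBP, FLNA, FZD2, KRT8, SMAD7, STC2, STMN4, SYT6, TLR3, TMEM132E and TXNIP did not pass either. With 293F kept and 24 h replicate 3 left out, BAG3, BAMBI, COL1A1, COL3A1, FZD2, HSPB8, KRT18, SMAD7, STING1, STMN4, SYT6, TLR3 and TMEM132E did not pass. SLC38A3 did not pass without 24 h replicate 2, nor did BMP2, FLNA and KRT8 without 0 h replicate 2.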

How the results depend on the processing

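For AC1.112 at 24 h against 0 h, 259 genes were higher and 264 lower. RLE scaling gave 239 and 282, DESeq2 305 and 320, no filter 239 and 238, and thinning 194 and 236. The 6 AC1.112 libraries alone gave 162 and 154, and fewer genes were tested there. Leaving out each AC1.112 library gave 157 to 260 higher and 247 to 316 lower, with 157 higher without 24 h replicate 3. With no minimum fold 2301 and 2670 passed, and glmTreat, which tests against a 2-fold change, called 7 and 4. The difference from the other lines, 35 higher and 70 lower, was 58 and 93 in DESeq2, 22 and 19 without 293F, and 871 and 1048 with no minimum. It ranged from 18 to 48 and from 35 to 79 with each AC1.112 library left out, and was 18 and 35 without 0 h replicate 2 and 18 and 60 without 24 h replicate 3. RLE scaling, no filter and thinning gave 35, 41 and 28 higher and 78, 71 and 47 lower. Apart from what the call rules and the number of libraries or genes set, the cause of these shifts was not tested. The replicate number as a block gave 215 and 250 calls for the time comparison, 188 and 184 in the 6 libraries alone, and 27 and 71 for the difference. With 3 pairs, 4 of the 6 libraries correlated best with their own number, a hint from the data and not from the design.

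Of the 170 genes named and tested, 135 kept the direction of the log2 fold change and their side of the threshold under every alternative run. Of 2196 gene values under the alternatives, 111 lost their pass, 22 gained one and none changed direction after a pass. The replicate block took the pass from CXCL2 (adjusted p = 0.0608), H4C16 (adjusted p = 0.0611) and IRF9 (adjusted p = 0.0558) and changed no other such call in the fit of all libraries. In the 6 libraries alone ANKRD37, GOLGA8A, GOLGA8B and GPR108 did not pass with the block or without it. For the difference from the other lines, 118 genes kept theirs and 122 of 2040 values lost a pass, 23 of them without 293F. MYC turned, from a difference of 0.19 to -0.19 without 293F in the mean. Of the 523 called genes, 367 lay under 1 CPM, and how depth acts on faint against abundant genes was not tested.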
